A study of Homo sapiens with 16 samples.

Results

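The 10 genes described here are a named set of mitochondrial tRNA genes on the plus strand that lie among the messenger genes and so punctuate them: TRNL1, TRNI, TRNM, TRNK, TRNG, TRNR, TRNH, TRNS2, TRNL2 and TRNT. The set does not hold every such gene: TRNW, directly after ND2, and TRND, directly before COX2, also border messengers and are given with the other plus-strand RNAs, while TRNS2 borders only TRNH and TRNL2. The 10 were taken by name from the 33121 entries of the count table, and all 10 passed the filter on low counts that left 15569 tested genes. Messenger RNA was selected by its poly-A tail from HAP1 cells, a near-haploid human line, and sequenced as paired reads of 100 bases in 16 libraries, 4 in each of 4 groups. The first group carried a deletion of SLC30A10, a manganese exporter of the cell surface, and was labelled SLC30A10_delta. Its control set was labelled SLC30A10+/+. A further deletion line (the second knockout) was compared with separate control cells (the second control). The labels name no treatment that separates the groups. The labels give a shared line identifier to the controls of both experiments and separate ones to the deletions, and no number of independent clones, date or batch is stated. The labels do not say that replicates came from separate cultures, so p-values measure the spread between these libraries, which may be technical.

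The human mitochondrial genome is transcribed from each strand into long RNAs that hold many genes in a row. tRNAs sit between most of the messengers and rRNAs of the plus strand, and their folded shape marks where the long RNA is cut: RNase P cuts at the 5′ end of each tRNA and RNase Z (ELAC2) at its 3′ end, which frees the neighbouring messengers. The freed tRNA then receives a CCA end from TRNT1, is chemically modified and is charged with its amino acid, while most messengers receive a poly-A tail. A mature tRNA has no long poly-A tail, so a poly-A selected library does not measure the pool of mature tRNA.

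The members are shorter than a read. They span 59 to 75 bases, so a 100-base read assigned to one of them also covers sequence outside it, which on this genome is usually a neighbouring gene. In the GENCODE annotation of GRCh38, release 29, 6 of the 10 directly follow a messenger or rRNA gene and 4 directly precede a messenger, with no base between. The coordinates equal those of RefSeq's GRCh38.p14 for 10 of 10. All 10 are on the plus strand of the mitochondrial chromosome (MT), and each is a single exon of a tRNA gene. TRNL1 (MT:3230-3304, leucine) directly follows the large rRNA RNR2 and ends 2 bases before ND1. TRNI (MT:4263-4331, isoleucine) directly follows ND1 and overlaps TRNQ, a tRNA gene of the other strand, by 3 bases. TRNM (MT:4402-4469, methionine) begins 1 base after TRNQ and directly precedes ND2. TRNK (MT:8295-8364, lysine) lies 25 bases after COX2 and 1 base before ATP8. TRNG (MT:9991-10058, glycine) touches COX3 and ND3, and TRNR (MT:10405-10469, arginine) touches ND3 and ND4L. TRNH (MT:12138-12206, histidine), TRNS2 (MT:12207-12265, serine) and TRNL2 (MT:12266-12336, leucine) form an unbroken row from the end of ND4 to the start of ND5. TRNT (MT:15888-15953, threonine) directly follows CYTB and ends 2 bases before TRNP of the other strand.

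The reference sequences of 6 members are given from 5′ to 3′ as the GENCODE genes have them. TRNI and TRNM had the highest fold changes in the SLC30A10 knockout, TRNT had the least spread in that knockout, and TRNH, TRNS2 and TRNL2 are the row without a messenger between them. The capitals mark the anticodon, found as the middle 3 of a loop of 7 bases between the arms, 5 bases each, that paired best. All 5 positions paired in TRNI, TRNM and TRNH, 4 in TRNL2 and TRNT, and 3 in TRNS2.
TRNI: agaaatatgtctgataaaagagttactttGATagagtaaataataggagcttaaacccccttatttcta
TRNM: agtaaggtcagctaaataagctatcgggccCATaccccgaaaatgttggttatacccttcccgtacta
TRNH: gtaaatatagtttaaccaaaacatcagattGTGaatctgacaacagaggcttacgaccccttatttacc
TRNS2: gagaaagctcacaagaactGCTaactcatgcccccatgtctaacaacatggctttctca
TRNL2: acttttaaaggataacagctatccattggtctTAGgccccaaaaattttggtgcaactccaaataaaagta
TRNT: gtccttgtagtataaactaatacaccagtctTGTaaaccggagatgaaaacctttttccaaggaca
For 10 of 10 members the anticodon pairs with a codon of the amino acid in the gene's name, a match that was required of the search. TRNS2 is the shortest at 59 bases, and it is known to lack the D arm that the other members have. GC content ran from 23.1% to 45.8%, and 0 of the 10 genes end in CCA, the 3 bases that are added after cutting.

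Library totals were even, from 16058856 to 16648151 counts, and the common biological coefficient of variation was 0.0497. SLC30A10 itself had 3 to 11 counts in its knockout, 6 to 9 in its control, 2 to 7 in the second control and 0 to 5 in the second knockout. It did not pass the filter, so its RNA level does not show the deletion. The deposited labels are therefore the only basis for the group names. Cell line markers of HAP1 were not examined.

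The members' RNA was highest in the SLC30A10 knockout and lowest in the second control. Summed over the 10 members, the level was 634 ± 51.5 CPM (counts per 1000000 of the scaled library; SD, n = 4) in the SLC30A10 knockout and 305 ± 23.7 CPM in its control. It was 290.04 ± 21.5 CPM in the second knockout and 207 ± 9.39 CPM in the second control. The members thus made up 0.0631%, 0.0306%, 0.0291% and 0.0206% of the libraries' counts in that order. Single libraries ran from 561 to 672 CPM in the SLC30A10 knockout and from 276 to 326 CPM in its control, without overlap. In bulk libraries, fewer cells with an RNA and less of it per cell cannot be told apart.

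Of the 10 members, 9 rose in the SLC30A10 knockout and 0 fell, by edgeR's quasi-likelihood test with Benjamini-Hochberg adjustment at 0.05 over all tested genes. Across those genes, 41.4% were called in either direction with 21.2% were higher and 20.2% lower. For 9 members every knockout library lay above every control library, which held for 19.7% of tested genes, and 18.6% were apart in the other direction. The median log2 fold change of the 10 members was 0.95, from 0.56 to 1.54, beside a median of -0.0048 over all tested genes. The lowest of these values, and the only one that missed the threshold, belonged to TRNS2.

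In the second knockout, 9 of the 10 members rose against that experiment's own control and 0 fell, where 13.7% of tested genes were called, 6.67% higher and 7.03% lower. For 8 members the libraries did not overlap, which held for 7.60% of tested genes, beside 8.69% apart in the other direction. The median log2 fold change was 0.58, from 0.25 to 0.92, beside -0.0024 over all tested genes. This count changed with the control set used. Against both control sets pooled, 0 of 10 members passed edgeR's quasi-likelihood test, with log2 fold changes from -0.15 to 0.48 and adjusted p from 0.0547 to 0.908. In that comparison 1 member had an unadjusted p under 0.05 and DESeq2 called 1. Against the same pool the SLC30A10 knockout had 10 of 10 members higher, by 0.94 to 1.87 on the log2 scale. The pooled control sets differed from each other in all 10 members, and the pooled fit takes that difference as spread between libraries. The 0 of 10 therefore does not show that the members were unchanged. The share of all tested genes called against the pool is not given here, so both pooled counts describe the members only.

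**Figure D1:**
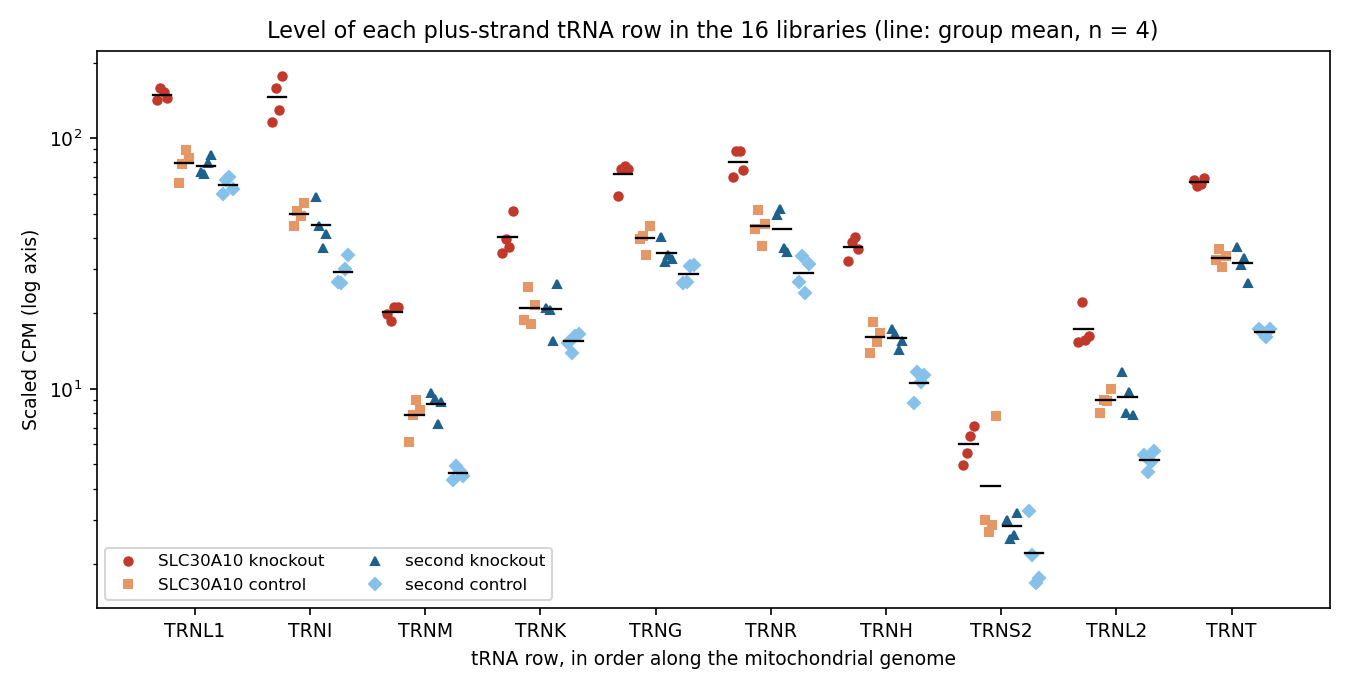
Level of each of the 10 tRNA genes in every library, in CPM on a log axis, with points for libraries and a bar for the mean of each group of 4. The SLC30A10 knockout libraries lie above the other 12 libraries for 9 of 10 genes, and TRNS2 shows a single SLC30A10 control library at 7.80 CPM, above the whole knockout group.

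The first stretch of the plus strand runs from RNR2 through ND1 to ND2 and holds TRNL1, TRNI and TRNM. TRNL1 (tRNA for leucine, UUR codons) had the highest level per length of the members in the 3 groups other than the SLC30A10 knockout, where it was close to TRNI. TRNL1 stood at 141, 158, 152 and 145 CPM in SLC30A10 knockout replicates 1 to 4 and at 65.9, 78.6, 89.2 and 83.3 CPM in the control replicates. All knockout libraries were above all controls, and the fold change was 1.88 (log2 0.91 ± 0.07, SE; edgeR adjusted p = 2.17e-11). In the second experiment the level was 73.3, 71.9, 79.5 and 85.2 CPM in the knockout and 59.9, 67.9, 69.8 and 62.6 CPM in the control. These groups were separate by a small gap, with a log2 difference of 0.25 ± 0.07 (edgeR adjusted p = 0.0160). That call was lost without second control replicate 1 (adjusted p = 0.0587), second control replicate 4 (0.0523) or second knockout replicate 4 (0.0612).

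TRNI decodes isoleucine and had the largest change among the members in the SLC30A10 knockout, though not in the second knockout. It stood at 116, 159, 129 and 177 CPM in the SLC30A10 knockout and at 44.6, 51.1, 48.8 and 54.9 CPM in its control. The knockout libraries spread widely, yet the lowest of them was above the highest control by a wide margin. The fold change was 2.91 (log2 1.54 ± 0.11; edgeR adjusted p = 1.40e-11). The second knockout had TRNI at 58.0, 44.6, 36.5 and 41.3 CPM and its control had it at 26.6, 26.4, 30.1 and 34.1 CPM, with no overlap. That log2 difference was 0.62 ± 0.13 (edgeR adjusted p = 8.89e-04). TRNI overlaps TRNQ on the other strand, and whether the counting used strand is not given in the sources used here, so reads from these genes cannot be told apart at the overlap. TRNQ stood at 3.14 ± 0.164 CPM in the SLC30A10 knockout and 1.61 ± 0.161 CPM in its control, far below TRNI.

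TRNM serves both initiation and elongation at methionine codons in mitochondria. It stood at 19.9, 18.6, 21.3 and 21.1 CPM in the SLC30A10 knockout and at 6.15, 7.89, 9.02 and 8.23 CPM in the control. The knockout libraries were tight and well above the controls, at a fold change of 2.58 (log2 1.37 ± 0.10; edgeR adjusted p = 6.71e-12). The second knockout stood at 9.60, 9.08, 7.21 and 8.84 CPM and its control at 4.34, 4.91, 4.70 and 4.50 CPM. The groups again did not overlap, with a log2 difference of 0.91 ± 0.12 (edgeR adjusted p = 1.61e-06).

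The middle stretch, from COX2 to ND4L, holds TRNK, TRNG and TRNR. TRNK (lysine) stood at 34.7, 39.4, 36.6 and 51.2 CPM in the SLC30A10 knockout and at 18.9, 25.5, 18.0 and 21.5 CPM in its control. Replicate 4 was the highest of the knockout libraries, and no control library reached the lowest of them (log2 0.95 ± 0.12; edgeR adjusted p = 4.33e-07). TRNK levels were 21.1, 20.7, 15.5 and 26.1 CPM in the second knockout and 15.2, 13.9, 16.3 and 16.5 CPM in the control. Here knockout replicate 3 lay among the controls, so the groups overlapped (log2 0.43 ± 0.13; edgeR adjusted p = 0.0305). DESeq2 did not call TRNK there (adjusted p = 0.0747). The edgeR call was also lost without second control replicate 1 (adjusted p = 0.0589) or 2 (0.0911), or without second knockout replicate 2 (0.0562) or 4 (0.131).

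TRNG (glycine) stood at 59.0, 75.3, 77.6 and 75.0 CPM in the SLC30A10 knockout and at 39.5, 40.8, 34.0 and 44.7 CPM in the control. Knockout replicate 1 was low beside its group and still above all controls (log2 0.85 ± 0.08; edgeR adjusted p = 5.01e-09). TRNG levels were 40.1, 31.9, 34.2 and 33.1 CPM in the second knockout and 26.4, 26.6, 30.9 and 31.0 CPM in the control. The gap between these groups was under 1 CPM, and the log2 difference was 0.28 ± 0.09 (edgeR adjusted p = 0.0419). That call was lost without second control replicate 1 (adjusted p = 0.116) or 2 (0.121), or second knockout replicate 1 (0.149) or 3 (0.0521).

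TRNR (arginine) stood at 69.8, 88.6, 88.8 and 74.4 CPM in the SLC30A10 knockout and at 43.6, 51.5, 37.2 and 45.3 CPM in its control. The groups were well apart, with a fold change of 1.81 (log2 0.86 ± 0.11; edgeR adjusted p = 4.92e-07). TRNR levels were 49.1, 51.9, 36.6 and 35.2 CPM in the second knockout and 26.6, 33.9, 24.2 and 31.3 CPM in the control. Knockout replicates 1 and 2 were well above replicates 3 and 4, the lowest of which was just above the highest control (log2 0.57 ± 0.12; edgeR adjusted p = 0.00119).

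TRNH, TRNS2 and TRNL2 follow each other without a gap between ND4 and ND5, so a read of 100 bases aligned in full over any of them reaches a neighbour. Their levels per length still differed, as given further on. TRNH (histidine) stood at 32.3, 38.5, 40.2 and 36.1 CPM in the SLC30A10 knockout and at 13.9, 18.4, 15.4 and 16.6 CPM in the control. No library overlapped, and the fold change was 2.28 (log2 1.19 ± 0.09; edgeR adjusted p = 1.16e-11). TRNH levels were 17.3, 16.5, 14.2 and 15.6 CPM in the second knockout and 8.81, 11.6, 10.6 and 11.3 CPM in the control. Those groups were also apart (log2 0.58 ± 0.10; edgeR adjusted p = 1.09e-04).

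TRNS2 (serine, AGY codons) had the lowest level per length of the members in all 4 groups. It stood at 4.97, 5.53, 6.50 and 7.10 CPM in the SLC30A10 knockout and at 2.98, 2.67, 2.87 and 7.80 CPM in its control. Control replicate 4 held 128 counts where the other controls held 44 to 49, and it exceeded every knockout library. With it, the log2 difference was 0.56 ± 0.23 and missed the threshold (edgeR adjusted p = 0.0538). Without it, a comparison chosen after its value was seen, the difference was 1.08 (edgeR adjusted p = 1.52e-05). TRNS2 also passed without SLC30A10 knockout replicate 1 (0.64; adjusted p = 0.0439) and with the replicate number as a block (0.61; adjusted p = 0.00924), against both control sets pooled (0.94; adjusted p = 0.0132) and with no filter on low counts (0.56; adjusted p = 3.56e-04). In the second experiment TRNS2 stood at 2.99, 2.51, 2.60 and 3.21 CPM in the knockout and at 3.24, 2.18, 1.69 and 1.76 CPM in the control. The groups overlapped and the log2 difference of 0.35 ± 0.30 did not pass (edgeR adjusted p = 0.493). At its lowest, TRNS2 had 28 counts, where counting error alone is 18.9%.

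TRNL2 (leucine, CUN codons) stood at 15.4, 22.2, 15.7 and 16.3 CPM in the SLC30A10 knockout and at 7.98, 9.05, 8.90 and 10.0 CPM in the control. Knockout replicate 2 stood out upward, and the other knockout libraries were also above all controls (log2 0.95 ± 0.12; edgeR adjusted p = 3.18e-07). In the second experiment the level was 11.7, 7.97, 9.69 and 7.87 CPM in the knockout and 5.45, 4.67, 5.12 and 5.65 CPM in the control. These groups were apart by more than the spread of the controls, with a log2 difference of 0.83 ± 0.14 (edgeR adjusted p = 1.07e-04).

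TRNT (threonine) closes the plus-strand messengers after CYTB. It stood at 67.9, 64.3, 65.7 and 69.3 CPM in the SLC30A10 knockout and at 32.6, 36.1, 30.7 and 34.0 CPM in its control. Its coefficient of variation in the knockout, 3.36%, was the smallest of any member there, and its fold change was 2.00 (log2 1.00 ± 0.07; edgeR adjusted p = 4.27e-12). TRNT levels were 36.8, 31.1, 33.2 and 26.3 CPM in the second knockout and 17.4, 16.7, 16.1 and 17.3 CPM in the control. The lowest knockout library was far above the highest control, and the log2 difference of 0.92 ± 0.08 was the largest of any member in that comparison (edgeR adjusted p = 8.71e-10), though within its error of TRNM's 0.91.

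**Figure D2:**
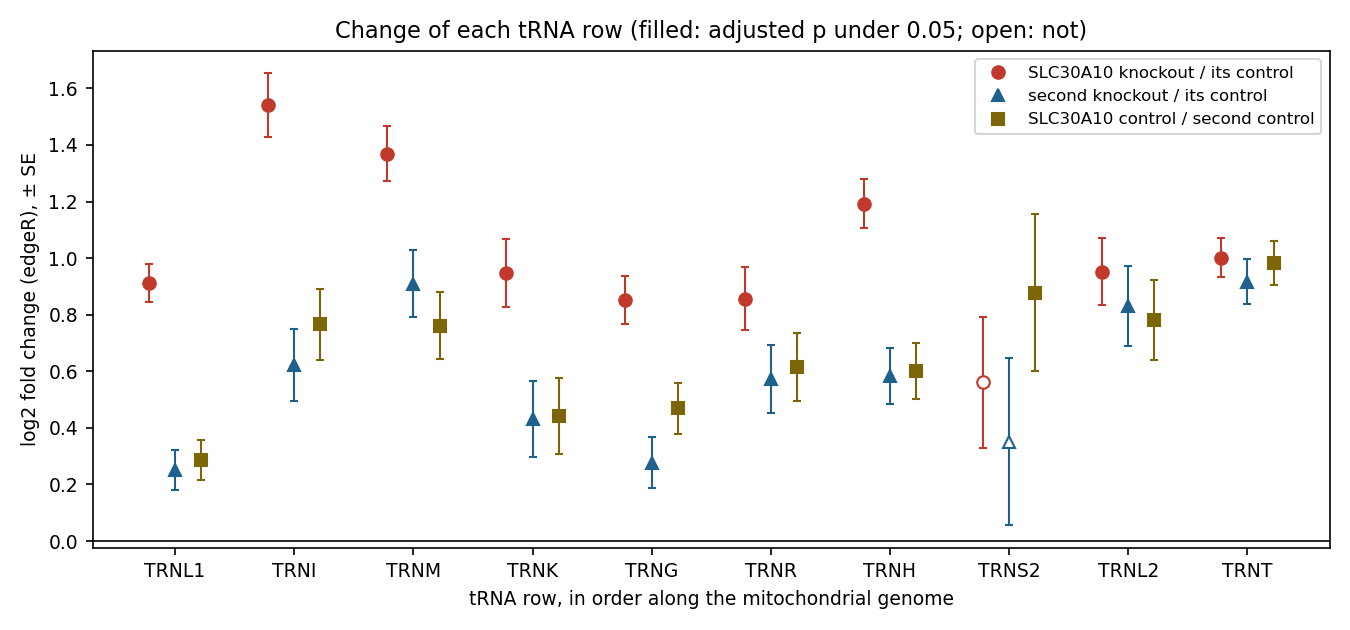
Log2 fold change of each of the 10 tRNA genes with its standard error, for each knockout against its own control and for the SLC30A10 control against the second control, filled where the edgeR adjusted p is under 0.05. The SLC30A10 knockout values run from 0.56 to 1.54, those of the second knockout from 0.25 to 0.92, and those between the control sets from 0.28 to 0.98.

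The control sets differed from each other in these RNAs. All 10 members were higher in the SLC30A10 control than in the second control by edgeR's quasi-likelihood test, where 39.3% of tested genes were called, 18.5% higher and 20.8% lower. For 8 members the libraries did not overlap, against 17.4% of tested genes (18.9% were apart in the other direction), and TRNL1 and TRNS2 were the members that did overlap. The median log2 difference was 0.69, from 0.28 for TRNL1 to 0.98 for TRNT, beside -0.0061 over all tested genes. For TRNT, 32.6, 36.1, 30.7 and 34.0 CPM stood against 17.4, 16.7, 16.1 and 17.3 CPM, which is a difference of 0.98 ± 0.08 (edgeR adjusted p = 1.97e-09). TRNI differed by 0.77 ± 0.13, TRNM by 0.76 ± 0.12, TRNL2 by 0.78 ± 0.14 and TRNS2 by 0.88 ± 0.28 on the log2 scale. The call for TRNS2 was lost without SLC30A10 control replicate 4 (0.37; edgeR adjusted p = 0.16), and that for TRNK without SLC30A10 control replicate 2 (0.34; adjusted p = 0.0542). This comparison shares libraries with each knockout comparison, so its values are not independent of theirs. Control sets and experiments cannot be told apart in this design.

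With the 4 groups set side by side, the SLC30A10 knockout had the highest mean and the second control the lowest for 10 of 10 members. The groups between them, the SLC30A10 control and the second knockout, had overlapping ranges for 10 of 10. TRNL1, for example, averaged 79.3 CPM among the SLC30A10 controls and 77.5 CPM among the second knockout libraries, and TRNT averaged 33.3 and 31.9 CPM. For 9 of 10 members, every SLC30A10 knockout library exceeded all other 12 libraries. TRNS2 was the exception. The share of all tested genes with each of these orders was not computed, so the counts describe the members only.

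The rise against the own control was larger in the SLC30A10 knockout than in the second knockout for 6 of 10 members by the test of the difference itself, where 31.3% of tested genes were called, 16.7% in this direction and 14.6% in the other. The difference of the log2 fold changes was 0.92 ± 0.17 for TRNI (edgeR adjusted p = 1.24e-04), 0.66 ± 0.10 for TRNL1 (7.47e-06) and 0.61 ± 0.13 for TRNH (8.27e-04). It was 0.57 ± 0.12 for TRNG (7.72e-04), 0.52 ± 0.18 for TRNK (0.0306) and 0.46 ± 0.15 for TRNM (0.0240). For TRNR, TRNS2, TRNL2 and TRNT the differences of 0.28 ± 0.16, 0.21 ± 0.38, 0.12 ± 0.19 and 0.08 ± 0.10 did not pass, which does not show that these members responded alike. TRNT had the narrowest error of these. Its rises of 1.00 and 0.92 started from control levels that differed by 0.98. The call for TRNM was lost without SLC30A10 control replicate 1 (adjusted p = 0.063), second control replicate 2 (0.0563) or second knockout replicate 3 (0.0539). For TRNK it was lost without SLC30A10 knockout replicate 4 (0.0881), SLC30A10 control replicate 1 (0.0665) or 3 (0.0606), second control replicate 3 (0.0609) or 4 (0.0606), or second knockout replicate 3 (0.0679). DESeq2 did not call TRNK in this comparison either (0.0912). Without SLC30A10 control replicate 4, TRNS2 did pass (0.72; edgeR adjusted p = 0.0355).

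Levels of different members were compared only per length, as CPM per 100 bases. In the SLC30A10 knockout, TRNI stood at 210.3 ± 39.9 and TRNL1 at 199 ± 10.1 CPM per 100 bases, which lie within the spread of TRNI. TRNR followed at 124 ± 15.1, TRNG at 105 ± 12.6 and TRNT at 101 ± 3.40, and these neighbours differed by less than or about the spread of their libraries. TRNK at 57.8 ± 10.6 and TRNH at 53.2 ± 4.97 were also not separate from each other. TRNM stood at 29.7 ± 1.83, TRNL2 at 24.5 ± 4.59 and TRNS2 at 10.2 ± 1.62 CPM per 100 bases. In the SLC30A10 control TRNL1 led with 106 ± 13.2, ahead of TRNI at 72.3 ± 6.26 and TRNR at 68.3 ± 9.08. In the row without gaps, TRNH, TRNS2 and TRNL2 thus stood at 53.2, 10.2 and 24.5 CPM per 100 bases in the knockout although they adjoin. These values depend on how reads that reach over a gene's end were assigned, a setting that is not given in the sources used here.

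The members were next set against other mitochondrial RNAs of the same libraries. The 8 tRNA genes of the minus strand together gave 1264 ± 67.9 CPM in the SLC30A10 knockout, 1424 ± 148 CPM in its control, 1540 ± 137 CPM in the second knockout and 1415 ± 96.4 CPM in the second control. TRNS1 was the largest part of that sum, at 702 ± 60.5 CPM in the SLC30A10 knockout and 892 ± 107 CPM in its control. It fell there by 0.34 on the log2 scale (edgeR adjusted p = 5.60e-04), so the ratios also carry that fall. Relative to the sum of the 8, 9 of 10 members were higher in the SLC30A10 knockout, by 0.87 to 1.69 on the log2 scale over all 10. TRNI led with 1.69, followed by TRNM with 1.55 and TRNH with 1.36. Each of the 9 had an exact two-sided permutation p of 0.0286, the smallest that 4 against 4 libraries allow, and a Benjamini-Hochberg value of 0.0390 over the 30 tests of this kind. TRNS2 had an exact p of 0.114 (adjusted 0.132). Fewer, 5 of 10, passed in the second knockout: TRNM by 0.78, TRNR by 0.45, TRNH by 0.47, TRNL2 by 0.69 and TRNT by 0.79. The minus-strand sum was on average higher in the second knockout than in its control, so those ratios also carry that rise. Between the control sets 8 of 10 passed, and TRNL1 and TRNS2 did not (exact permutation p = 0.0571 each, adjusted 0.0686). Such ratios were not computed for all tested genes, so these counts describe the members only.

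**Figure D3:**
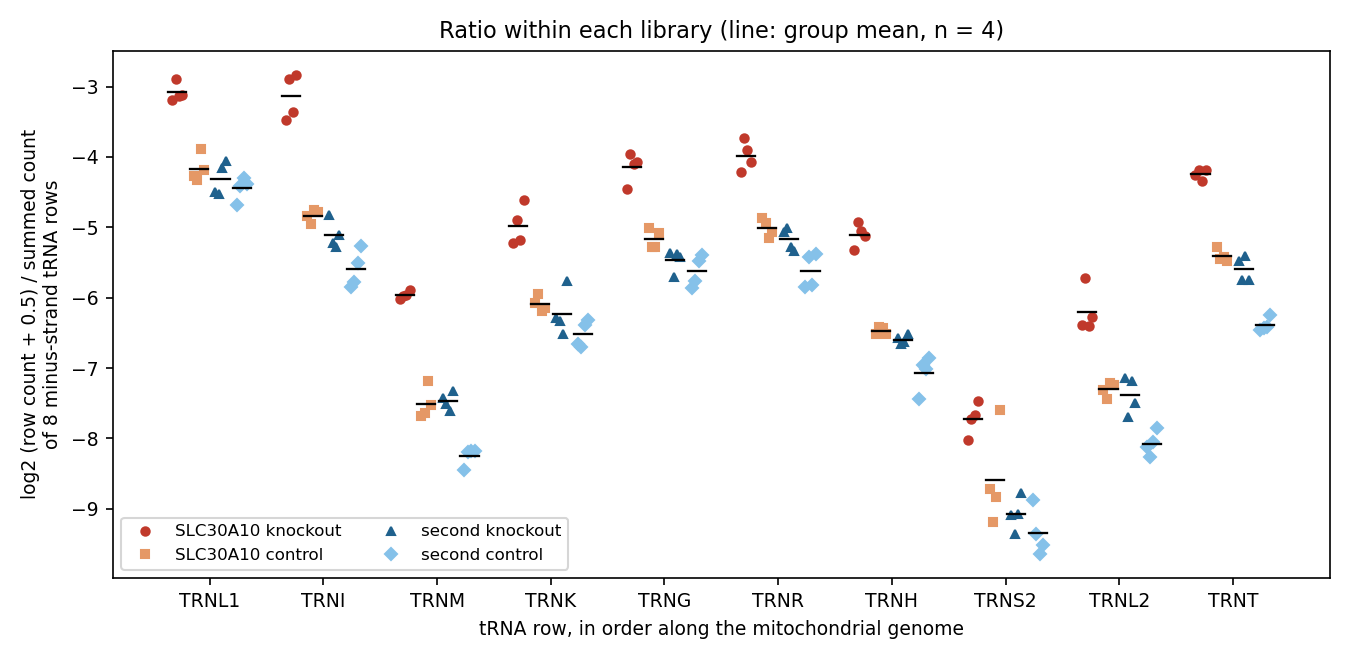
Log2 ratio of each of the 10 tRNA genes to the summed minus-strand tRNA counts, 1 point per library and a bar for the mean of each group of 4. The SLC30A10 knockout points lie above those of its control for 9 of 10 genes, with TRNI 1.69 higher on average.

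TRNL1 was the only member set against a neighbour of its own, the rRNA RNR2. The others border messengers or tRNAs. RNR2, the large rRNA, stood at 133 ± 17.9 CPM in the SLC30A10 knockout and 128 ± 7.78 CPM in its control (log2 0.06 ± 0.11; edgeR adjusted p = 0.673). The log2 ratio of TRNL1 to RNR2 was 0.17 ± 0.15 in the knockout and -0.69 ± 0.27 in the control (SD, n = 4 each), with no overlap. The difference of 0.86 had an exact permutation p of 0.0286, and 0.0571 after adjustment over both knockouts, so it missed the threshold at the limit of the design. In the second experiment the ratio was -1.06 ± 0.31 and -1.21 ± 0.23, and the difference of 0.15 was within the spread (exact permutation p = 0.514). Those messengers were not analysed here, so the members' levels were not set against them.

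For the share of each member in the summed counts of the 10, no difference passed adjustment. TRNI made up 22.8% ± 2.79 of the members' counts in the SLC30A10 knockout and 16.4% ± 0.429 in its control, 6.40 percentage points more (exact permutation p = 0.0286; adjusted over 30 tests 0.122). In the second knockout TRNT stood 2.82 and TRNM 0.759 points above the control share, and that of TRNG differed by -1.86 points, each with an exact permutation p of 0.0286. Of the 30 tests, 0 passed, and the smallest adjusted value was 0.122. An exact p of 0.0286 is the smallest that 4 against 4 libraries allow. A few shares that are fully apart could therefore not pass adjustment over 30 tests, and the result does not show that the shares were unchanged.

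Other RNAs of the plus strand, TRNW and TRND among them, were called in part. Of 6 further plus-strand entries, 3 rose in the SLC30A10 knockout and 0 fell, with a median log2 fold change of 0.47. Over all tested genes 21.2% were higher and 20.2% lower. TRNV, the valine tRNA between the rRNAs, rose by 1.53 ± 0.14, TRNW (tryptophan) by 1.47 ± 0.16 and TRND (aspartate) by 0.59 ± 0.16 (edgeR adjusted p = 6.64e-10, 2.84e-08 and 0.00456). TRNF, RNR1 and RNR2 did not pass. TRNV also rose in the second knockout, by 0.84 ± 0.18 (edgeR adjusted p = 0.00195), and the other 5 did not pass. TRNW, which lies between ND2 and a group of minus-strand tRNA genes, had a log2 difference of 0.09 ± 0.19 there, and TRND one of -0.01 ± 0.19 (edgeR adjusted p = 0.815 and 0.981). The difference between the knockouts was 1.38 ± 0.25 for TRNW (edgeR adjusted p = 1.16e-04), beside the 0.92 of TRNI.

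On the minus strand, 3 of 8 tRNA genes rose in the SLC30A10 knockout and 1 fell, with a median log2 fold change of 0.05. Over all tested genes 21.2% were higher and 20.2% lower. TRNA (alanine) rose by 1.58 ± 0.32, TRNQ (glutamine) by 0.96 ± 0.16 and TRNC (cysteine) by 0.27 ± 0.07, and TRNS1 (serine, UCN codons) fell by 0.34. TRNS1 stood at 702 ± 60.5 CPM in the knockout and 892 ± 107 CPM in its control. TRNA was at 1.52 ± 0.281 and 0.503 ± 0.246 CPM. In the second knockout edgeR called 0 of 8, with 1 at an unadjusted p under 0.05 and 0 called by DESeq2, and the median was 0.05. TRNP, the gene 2 bases from TRNT on the other strand, stood at 68.7 ± 5.55 and 65.4 ± 5.39 CPM in the SLC30A10 experiment (log2 0.07 ± 0.08; edgeR adjusted p = 0.535).

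**Figure D4:**
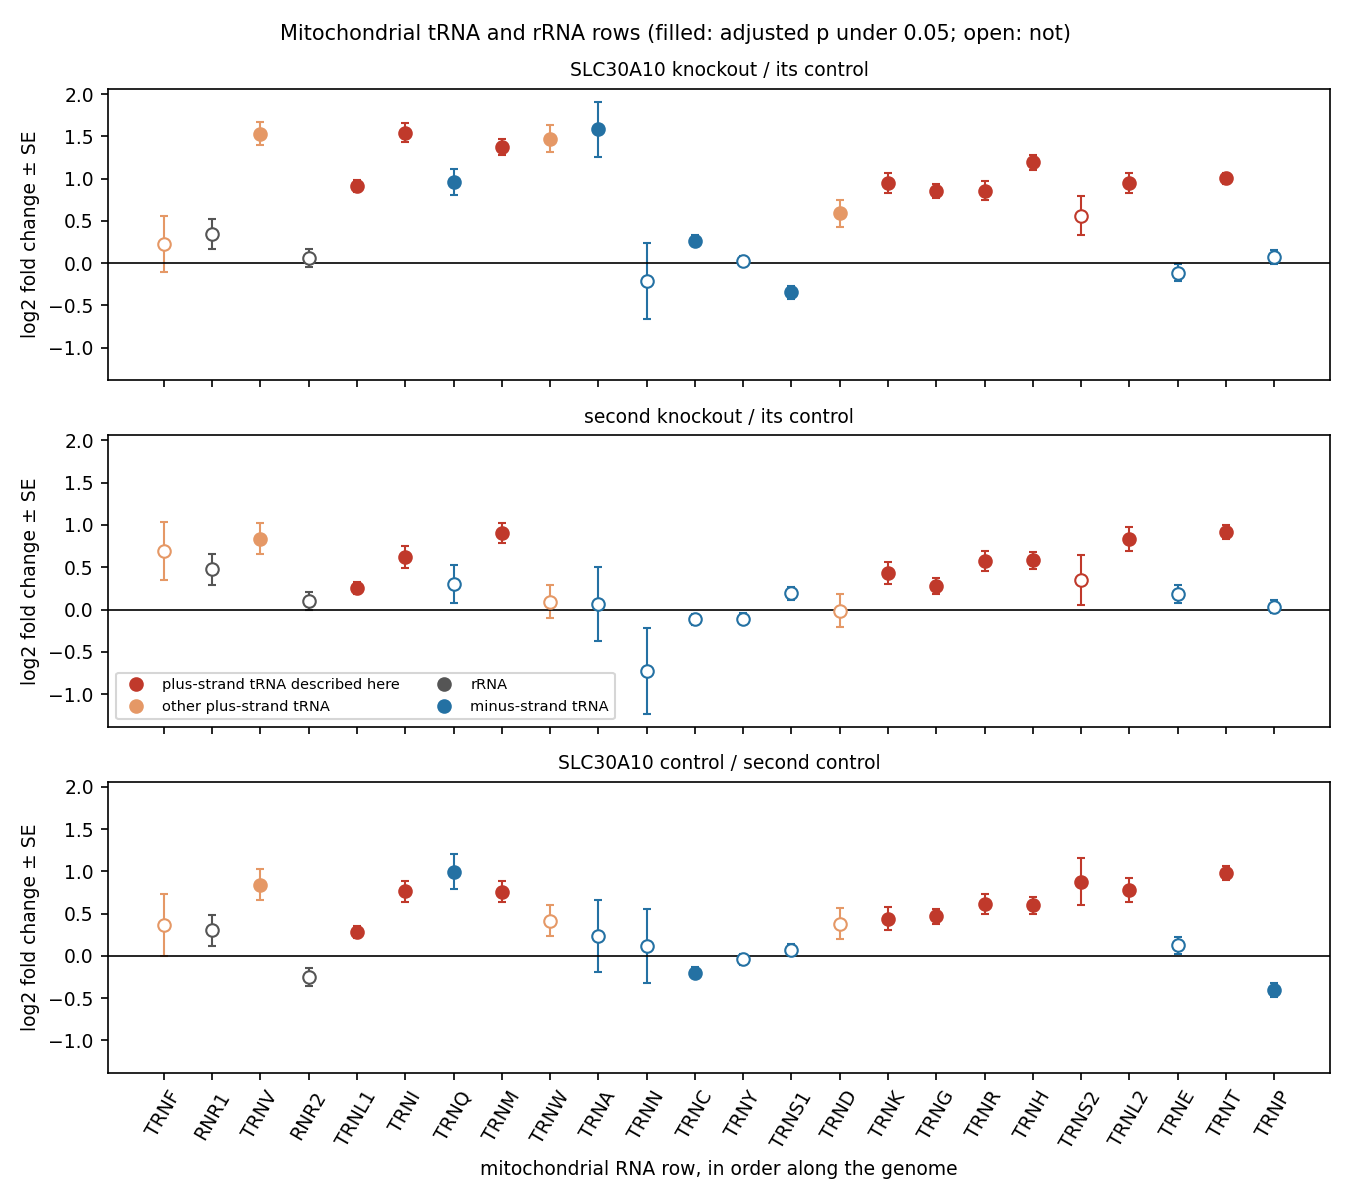
Log2 fold changes with standard errors of the 24 mitochondrial RNAs in genome order, with a panel for each knockout against its own control and a panel for the SLC30A10 control against the second control; colours mark the 10 punctuating plus-strand tRNA genes, other plus-strand tRNAs, rRNAs and minus-strand tRNAs, and filled points have an edgeR adjusted p under 0.05. The 10 lie between 0.56 and 1.54 in the SLC30A10 knockout. Of the 8 minus-strand tRNA genes, 3 were called higher there, TRNA (1.58), TRNQ (0.96) and TRNC (0.27), and 1 lower, TRNS1 (-0.34). Of the 6 other plus-strand RNAs, 3 were called higher there, TRNV (1.53), TRNW (1.47) and TRND (0.59), and 0 lower.

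The nuclear genes for making and finishing these tRNAs were described from lists. Across all tested genes, 21.2% were higher and 20.2% lower in the SLC30A10 knockout, and 6.67% and 7.03% in the second knockout. Between the control sets the shares were 18.5% higher and 20.8% lower. A list with counts near these shares does not stand out from other genes. Of 5 tested genes for excision and maturation, 2 rose in the SLC30A10 knockout: HSD17B10, a subunit of mitochondrial RNase P, by 0.28 ± 0.05 (edgeR adjusted p = 1.25e-04), and TRNT1, which adds the CCA end, by 0.13 ± 0.05 (0.0416). DESeq2 called 1 of the 5. For the second knockout edgeR called 0 of 5, with 0 at an unadjusted p under 0.05 and 0 by DESeq2. Of 8 tested genes for mitochondrial transcription, edgeR called 0 in each knockout, with 0 at an unadjusted p under 0.05 and 0 by DESeq2. Between the control sets 4 of these 8 were higher in the SLC30A10 control.

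Among 16 tested genes of the mitochondrial RNA granule, the FASTK family of RNA-binding proteins and RNA decay, 1 rose and 4 fell in the SLC30A10 knockout. FASTKD2, which binds mitochondrial RNAs in the granule, was nearly absent there: 0.170 ± 0.0781 CPM, which is 1 to 4 counts per library, against 60.1 ± 2.93 CPM in its control. It stood at 34.6 ± 3.13 CPM in the second knockout and 53.97 ± 1.44 CPM in the second control, a log2 difference of -0.64 ± 0.06 (edgeR adjusted p = 4.25e-09). The part of FASTKD2 in the members' levels was not tested. FASTKD5, another member of that family, fell by 0.50 and REXO2, a mitochondrial oligoribonuclease, by 0.30 on the log2 scale in the SLC30A10 knockout (edgeR adjusted p = 1.80e-06 and 4.09e-05). In the second knockout 1 of the 16 rose, PTCD2 by 0.19 ± 0.06, and FASTKD2 fell. Between the control sets 12 of the 16 were higher in the SLC30A10 control and 0 lower, with a median log2 difference of 0.21. Of all tested genes, 18.5% were higher and 20.8% lower there.

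Of 17 tested genes for mitochondrial tRNA modification, 0 rose and 3 fell in the SLC30A10 knockout. NSUN2, a tRNA methyltransferase, fell by 0.17, MTO1, which modifies wobble uridines, by 0.15 and PUS1, a pseudouridine synthase, by 0.17 (edgeR adjusted p = 0.0108, 0.0381 and 0.0494). DESeq2 called 2 of the 17, and the libraries of PUS1 overlapped between the groups. GTPBP3, the partner of MTO1, rose in the second knockout by 1.13 ± 0.06 (edgeR adjusted p = 3.08e-14). GTPBP3 lies on chromosome 19 between SIN3B and SLC27A1, and 17 of the 18 other tested genes of that stretch were also higher, with a median of 0.92. The bounds of the stretch were set with earlier results of these data known, so this count is a description only. The cause of the rise of GTPBP3 was not tested. Of 9 synthetases that charge the members, HARS2 (histidine) rose by 0.30 ± 0.06 in the SLC30A10 knockout, while GARS (glycine) fell by 0.38 and TARS2 (threonine) by 0.12. SARS2 (serine) rose in the second knockout by 0.24 ± 0.06 and GARS by 0.41 ± 0.10. The GARS libraries overlapped there, at 271 to 503 CPM in the second knockout and 253 to 309 CPM in the second control. TRNG, the tRNA that GARS charges, rose in both knockouts, while GARS fell in the SLC30A10 knockout and rose in the second. TRNH, which HARS2 charges, rose in both, while HARS2 did not pass in the second knockout (edgeR adjusted p = 0.0556). A link between the levels of synthetases and tRNAs was not tested.

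Outside the mitochondrial genome, the tested genes whose 4 group means followed the members' sum most closely were NAP1L2, TFPI2 and TNFRSF21. Likeness was the root mean square difference of the centred means of log2 (CPM + 0.5) over the 4 groups. It was 0.0441, 0.0726 and 0.0890. NAP1L2 averaged 12.5 CPM in the SLC30A10 knockout, 5.33 in its control, 5.31 in the second knockout and 3.79 in the second control. TFPI2 averaged 2.06, 0.837, 0.813 and 0.455 CPM, and TNFRSF21 15.5, 7.50, 6.10 and 4.95 CPM, in the same order of groups. With 15569 genes compared over 4 group means, a close match of some genes is a description only.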

How the data were processed

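The authors deposited whole-number counts per gene symbol and a table of normalized signal. The submitters' processing notes name HISAT2, featureCounts, DESeq2 and the builds hg38 and GRCh38. Versions, annotation, read assignment and use of strand are not given in the sources used here, and the labels' protocol names no step that marks the strand. Each column of the deposited signal equals a count column times a constant, within 5.13e-06 counts, and was used for an alternative scaling. Reads that match nuclear copies of mitochondrial sequence, and their treatment, were not examined.

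The counts were tested in edgeR 4.0.16 (R 4.3.3), after its filterByExpr step (minimum count 10, minimum total 15) and TMM scaling, in a single fit of all 16 libraries with a coefficient for every group. Quasi-likelihood F tests compared each knockout with its control, both effects with each other, and both control sets. P-values were adjusted by Benjamini-Hochberg over 15569 genes, with a threshold of 0.05. Errors of log2 fold changes are the fold change divided by the square root of F, and errors of levels are SDs. Ratios added 0.5 to the member's count and nothing to the denominator, and shares added no constant. Both were compared by two-sided exact permutation tests over libraries. Alternatives were other size factors, library totals alone, DESeq2 1.42.0, no filter, an adjusted p under 0.01, the 8 libraries compared alone, pooled control sets, the replicate number as a block and leaving out each library. The deposited size factors, 2 further denominators and the omission of an unusual TRNS2 library were chosen after seeing the data.

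Members and gene lists were chosen with earlier results of these data known. Named genes are the members, up to 3 called genes with the smallest adjusted p per list and knockout, the RNAs that border a member, and the 3 genes nearest in pattern; other mitochondrial RNAs, and list genes shown again in another comparison, were named after their values were seen. The procedure was tested on simulated counts. Replicate pairs differed by more than sampling noise, with a chi-square of 1.60 to 6.43 per degree of freedom, so each library was counted once. The gene deleted in the second knockout is not reported here.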

Additional observations from a re-analysis of the deposited data

Results flagged for a closer look

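In 3 of 40 groups of 4 libraries, a library stood far from the others by Dixon's ratio of its gap to the group's range; chance gives about 2.0. TRNS2 in the SLC30A10 control had a ratio of 0.939, from replicate 4 with 128 counts against 44 to 49. TRNL2 in the SLC30A10 knockout had 0.869, from replicate 2 at 22.2 CPM above a group otherwise at 15.4 to 16.3 CPM. TRNG in the SLC30A10 knockout had 0.86, from replicate 1 at 59.0 CPM below a group otherwise at 75.0 to 77.6 CPM. These came from 3 different libraries.

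The rise was larger in the SLC30A10 knockout than in the second knockout, by the edgeR test of the difference, for TRNL1 (0.66), TRNI (0.92), TRNM (0.46), TRNK (0.52), TRNG (0.57) and TRNH (0.61 on the log2 scale).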

How the results depend on the processing

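Of 730 recomputed values over 40 results (each member in each of 4 comparisons), 679 kept their direction and their side of the threshold, 40 lost the call, 7 gained it and 4 changed sign. None of the values that changed sign was called. With both control sets pooled, 0 of 10 members were called in the second knockout, and TRNS2 there was -0.15. For the difference of the knockout effects, TRNS2 ran from -0.0302 (without second control replicate 1) to 0.722, TRNL2 from -0.0202 (without SLC30A10 knockout replicate 2) to 0.238, and TRNT from -0.0044 (without second knockout replicate 4) to 0.151; the cause was not tested. Leaving out each library in turn gave 9 to 10 members called in the SLC30A10 knockout, 6 to 9 in the second knockout, 4 to 7 for the difference of the effects and 9 to 10 between the control sets. The TRNL1 to RNR2 log2 difference ran from 0.745 to 0.961 and from 0.0421 to 0.273. At an adjusted p under 0.01 the counts were 9, 6, 4 and 8, and with DESeq2 9, 8, 5 and 10. The share of all tested genes called under each alternative is not given here, so these counts describe the members only.

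The same replicate numbers recur in every group, but did not pair the libraries: the deviations of libraries with equal numbers correlated at -0.117 to 0.148. With the replicate number as a block, edgeR called 10, 9, 6 and 10 members, and the TRNL1 to RNR2 differences were 0.86 (exact p = 0.125, the smallest that 4 pairs allow) and 0.15 (exact p = 0.875). Of the planned ratios of members to the messenger or rRNA beside them, only that of TRNL1 to RNR2 was run. The messengers were not analysed here. Depth limited TRNS2 most, at 28 to 128 counts.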
